A study of Schmidtea mediterranea with 60 samples.

Results

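The transcripts described here had a brief wave of higher levels in planarian tails at 6 hours after amputation and then stood below their starting level at 2 days. They were chosen by their values in control tails, on L, the log2 of a group's mean scaled value plus 10, where a scaled value is the level that the authors deposited for a feature (a transcript ID) in a library. For each feature d6, d1 and d2 are L at 6hpa, 1dpa and 2dpa minus L at 0dpa (hpa and dpa are hours and days post amputation). Of 36035 features in the tail table, 12868 had a control mean of at least 50 at 1 or more of the 4 times, and 218 of those had d6 of at least 1 with d2 of at most -0.5. The 200 of these with the highest d6 minus d2 are the members. Their time course in control tails, and their distance from control tails at 0dpa, 6hpa and 2dpa, therefore chose them, and both are given as a description with no test.

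Planarians are freshwater flatworms that regrow any missing part from adult stem cells called neoblasts. An amputation sets off a fast transcriptional wound response within hours, part of which any injury triggers, and a later response that differs with the tissue that is missing. Mitochondria fuse and divide continuously: the product of opa1 fuses their inner membranes and that of drp1 pinches them apart. The enzyme made from sod2 removes superoxide inside mitochondria. The deposited tables give feature IDs without gene names, so the members are reported by ID and no function is given for any of them, and the knockdown of the targeted genes and the markers of tissues or cell types were not checked here.

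The series held 60 libraries of Schmidtea mediterranea, 36 from tails and 24 from whole bodies, with 3 in each group. Tails had opa1 with drp1 RNAi (combined RNAi tails), opa1 with egfp RNAi (opa1 RNAi tails) or egfp with egfp RNAi (control tails), each at 0dpa, 6hpa, 1dpa and 2dpa; all tails thus had a pair of RNAi targets, and egfp, which encodes a jellyfish protein, served as the control target. Whole bodies had drp1, opa1, sod2 or egfp RNAi, each at 1dpa and at a time labelled homo, whose meaning the sources used here do not give. The labels do not say whether replicates came from separate animals or pools, nor the strain or age, so a p-value reflects the spread between libraries alone, which may be technical. These are bulk samples, in which fewer cells of a type and less RNA per cell cannot be told apart. Sums per library ran from 8345030 to 14472000 for tail values and from 10611100 to 14328900 for whole-body estimated counts. Libraries of 1 group correlated across features at r = 0.958 to 0.977 for tails, and for whole bodies at 0.973 to 0.978; no 2 of them were identical.

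In control tails the members stood a median of 1.21 log2 units above 0dpa at 6hpa (range 1.01 to 3.15) and 0.68 below it at 2dpa (d2 of -1.61 to -0.50), by the choice itself. At 1dpa d1, which shares the 0dpa libraries with d6 and d2 and is drawn below 0 by the same choice, was below 0 in all 200 members on the deposited scale (above 0 in 2 of 199 with equal sums and in 6 of 164 on TPM values), with a median of -0.62 against -0.02 over the 12868 features at 50 or more. The lowest point was at 1dpa in 75 members and at 2dpa in 125. A d6 of 2 or more was seen in 7 members, d1 of -1 or lower in 23 and d2 of -1 or lower in 20. At the limits, SMED30000705 entered with d6 of 1.01 while SMED30015725 missed with 0.998, and SMED30027256 entered with d2 of -0.504 while SMED30035131 missed with -0.4996. SMED30018138 was the last by rank with d6 minus d2 of 1.626, and SMED30027281 the first left out with 1.621. The list depends on single control libraries. Without control 0dpa replicate 1, whose members lay 0.27 above their mean over all 36 tail libraries (median over members) while the others lay at -0.26 and -0.05, the rule keeps 110 of the 200. It keeps 149 and 162 without control 0dpa replicate 2 or 3, 143 without control 6hpa replicate 1, and 157 to 185 without any other control library at 6hpa or 2dpa.

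**Figure D1:**
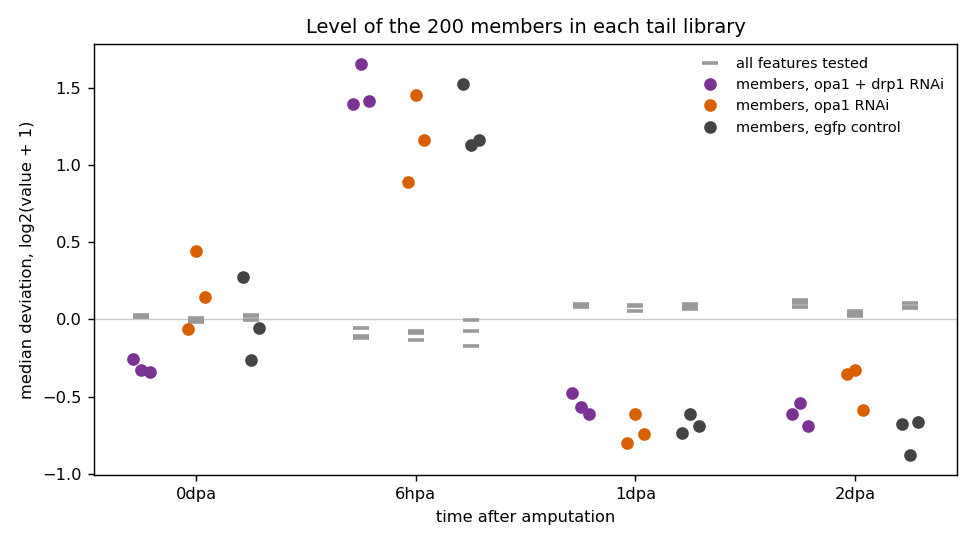
Level of the members in each of the 36 tail libraries. The vertical axis is the median over the 200 members of log2(value + 1) minus the feature's mean over all tail libraries (points, coloured by RNAi, combined left of opa1 left of control), and the horizontal axis is the time after amputation; grey dashes give the same median over the 20681 features tested. The libraries at 6hpa lie between 0.89 and 1.66 in all 3 RNAi groups, those at 0dpa between -0.34 and 0.44, and those at 1dpa and 2dpa between -0.88 and -0.33.

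The choice of scale shifts these levels for all features together. On the deposited scale the median of all 12868 features was -0.07 at d6 and -0.00 at d2, and in the TPM table, which holds 164 of the members, it was -0.42 and 0.34. Relative to the median of all features the members stood 1.27 higher at 6hpa on the deposited scale and 1.23 higher on the TPM scale, and at 2dpa they stood at -0.68 and -0.70. All members measured were above 0dpa at 6hpa and below it at 2dpa on each scale tried, but on TPM values only 9 of the 164 pass both limits of the rule; the cause was not tested.

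The member with the most RNA was SMED30032887, which alone took 3.61% to 29.2% of the sum of a tail library. In combined RNAi tails it had values of 1147380, 995675 and 1141050 at 0dpa, then 2974680, 3206480 and 2335900 at 6hpa, followed by 739180, 764847 and 741225 at 1dpa and 653947, 678657 and 542043 at 2dpa. In opa1 RNAi tails it had 627605, 903337 and 647082 at 0dpa, then 1094380, 1566400 and 1104980 at 6hpa, followed by 369811, 395581 and 340591 at 1dpa and 395744, 435827 and 302141 at 2dpa. In control tails it had 1573510, 1234440 and 1373910 at 0dpa, then 4224870, 2525690 and 3097390 at 6hpa, followed by 883841, 872988 and 868237 at 1dpa and 729915, 695923 and 861964 at 2dpa. Within each RNAi group its 6hpa libraries were the highest, and at every time each opa1 RNAi library lay below every control library. The libraries were treated as scaled to one another, and a feature of this size could then move the values of the rest. The tests were therefore repeated after this feature was taken out and the sums made equal. Its part in the other members' values was not tested further. The other 199 members made up 1.77% ± 0.27 of a control library at 0dpa, against 3.37% ± 0.19 at 6hpa, 1.19% ± 0.03 at 1dpa and finally 1.21% ± 0.07 (2dpa; SD, n = 3 each).

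Among the 10 members with the highest d6 minus d2, 6 had a d6 that rounds to 1.79 or more both with and without control 6hpa replicate 2. They are given first. For SMED30002026 combined RNAi tails gave 209.7, 308 and 281 at 0dpa, then 1504, 1601 and 1459 at 6hpa, followed by 246, 198 and 184 at 1dpa and 172, 196 and 188 at 2dpa. Opa1 RNAi tails gave 257, 556 and 449 at 0dpa, then 1261, 2131 and 1792 at 6hpa, followed by 107, 168 and 101 at 1dpa and 173, 230.1 and 192 at 2dpa. Control tails gave 263, 173 and 352 at 0dpa, then 1248, 1195 and 1296 at 6hpa, followed by 100.1, 108 and 97.9 at 1dpa and 88.1, 67.4 and 191 at 2dpa. Every 6hpa library of this feature lay above every library of the other times within its RNAi group, and the 1dpa libraries lay below those of 0dpa in opa1 RNAi and control tails, while in combined RNAi tails they overlapped.

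For SMED30029780 combined RNAi tails gave 174, 154 and 197 at 0dpa, then 876, 1259 and 970.0 at 6hpa, followed by 146, 139.7 and 172 at 1dpa and 108, 118 and 106 at 2dpa. Opa1 RNAi tails gave 234, 166 and 153 at 0dpa, then 925, 820.4 and 1126 at 6hpa, followed by 154, 144 and 171 at 1dpa and 118, 112 and 127 at 2dpa. Control tails gave 239, 188 and 232 at 0dpa, then 1103, 908 and 666 at 6hpa, followed by 98.7, 109.9 and 100.5 at 1dpa and 74.9, 70.5 and 95.5 at 2dpa. This feature was at its lowest at 2dpa in all 3 RNAi groups, and its 2dpa libraries did not overlap with those of 0dpa in any of them. SMED30002072 stood lowest at 1dpa relative to 0dpa of all members, with d1 of -2.76. Combined RNAi tails gave 2095, 1662 and 1287 at 0dpa, then 8818, 11098 and 10090.1 at 6hpa, followed by 156, 229.8 and 436 at 1dpa and 431, 411 and 512 at 2dpa. Opa1 RNAi tails gave 1809, 1733 and 2195 at 0dpa, then 4206, 4132 and 5207 at 6hpa, followed by 287, 533 and 245 at 1dpa and 658, 898 and 553 at 2dpa. Control tails gave 3809.6, 2836 and 1356 at 0dpa, then 14273, 5601 and 8211 at 6hpa, followed by 580.1, 314 and 262 at 1dpa and 952, 844 and 802 at 2dpa. In each RNAi group its 1dpa and 2dpa libraries lay below all 0dpa libraries. The same held for SMED30030586 and SMED30014019, whose control values at 1dpa were 151, 159 and 189.9 and 822, 595 and 549.5 and at 2dpa 116, 134 and 161 and 1059.9, 971 and 894. They had control values of 1216, 1156 and 1110.4 at 6hpa for SMED30030586 and 11468, 4899.5 and 5854 for SMED30014019, against 389, 247 and 352 and 2654, 1815 and 1654 at 0dpa. SMED30033942, the lowest in level of these 6, had 373, 115 and 96.96 at 6hpa and 60.99, 40.4 and 21.1 at 0dpa in control tails, where replicate 1 stood highest at both times.

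In the other 4 of the 10, replicate 2 was the highest control library at 6hpa, and d6 lies under 1.79 without it. SMED30004898, first by rank, had 20.9, 6.37 and 24.9 at 0dpa, then 19.8, 659.9 and 19.2 at 6hpa, followed by 2.91, 8.13 and 6.82 at 1dpa and 1.47, 3.33 and 0 at 2dpa in control tails, so only 6hpa replicate 2 stood high. Without that library its d6 is 0.11 in place of 3.15. SMED30032103 had 333, 1579.9 and 189 at 6hpa in control tails, SMED30010932 had 103, 612 and 46.3 and SMED30021938 had 125, 234 and 31.1, with replicate 2 the highest in each case. Without it, d6 is 1.76 for SMED30032103, 1.04 for SMED30010932 and 1.39 for SMED30021938. In combined RNAi tails at 2dpa, replicate 3 of SMED30004898 had 301, against 8.23 and 4.74 in the others. Without control 6hpa replicate 2, 197 of the 200 members pass both limits, and SMED30004898, SMED30008070 and SMED30008790 do not.

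**Figure D2:**
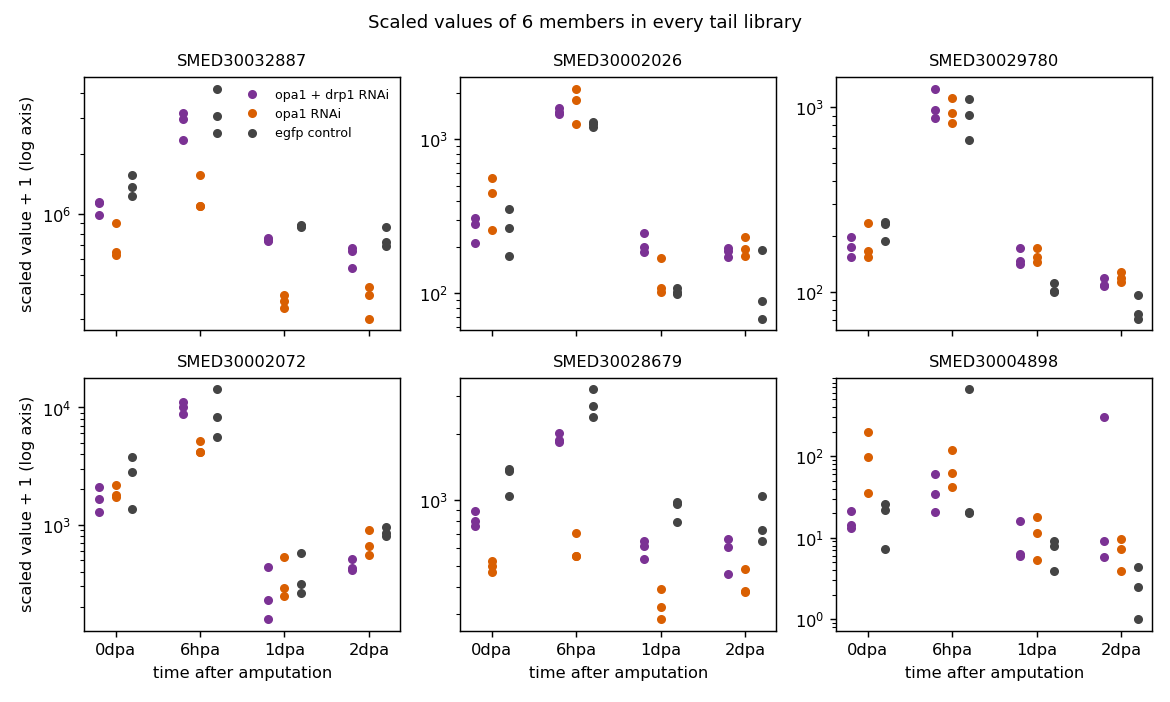
Scaled values plus 1 (vertical, log axes that differ by panel) of 6 members in every tail library against time after amputation, with combined RNAi left of opa1 RNAi left of control at each time. SMED30002026, SMED30029780 and SMED30002072 have all 6hpa libraries above all others of their group, SMED30032887 and SMED30028679 lie lower in opa1 RNAi tails, and SMED30004898 has 1 control library at 659.9 among 6hpa values of 19.8 and 19.2.

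The libraries of RNAi tails did not enter the choice, and there the rise at 6hpa was tested. In combined RNAi tails 195 of 200 members rose at 6hpa against 0dpa and 0 fell, where 23.6% of all 20681 features tested rose and 29.2% fell (limma on log2(value + 1), adjusted p under 0.05 over all features). With opa1 RNAi 187 rose and 0 fell, where 18.4% of all features rose and 20.9% fell. The median log2 fold change of the members was 1.80 in combined RNAi tails and 0.97 in opa1 RNAi tails, against -0.19 and -0.12 over all features. Those counts are near those of the 1366 features with d6 of at least 1 and d2 above -0.5 in control tails. Of these features 98.6% rose in combined and 93.4% in opa1 RNAi tails. They are called features with the rise alone below, a name that refers to d2 only. In control tails their median was -0.39 at 1dpa and 0.00 at 2dpa, given as values only. On the TPM scale the medians of the members were 1.26 and 0.83, with all features at -0.38 and -0.13. All 187 members that rose with opa1 RNAi also rose with combined RNAi, where 16.4% of all features rose in both; the 2 groups share no libraries.

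In combined RNAi tails the largest rises were those of SMED30016497 and SMED30024800. SMED30016497 had 252, 375 and 247 at 6hpa and 16.4, 5.51 and 11.5 at 0dpa (log2 fold change 4.67 ± 0.56 SE, adjusted p = 8.60e-09). SMED30024800 had 929, 1267 and 1069.9 at 6hpa and 145, 78.3 and 97.3 at 0dpa (log2 fold change 3.37 ± 0.26 SE, adjusted p = 8.45e-13). The groups did not overlap for either. The smallest rises among those that passed were SMED30005627 (1.00) and SMED30025879 (1.03).

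In opa1 RNAi tails SMED30021394 rose most, with 469, 906 and 743 at 6hpa and 90.4, 90.6 and 91.1 at 0dpa (log2 fold change 2.89 ± 0.31 SE, adjusted p = 7.55e-09). SMED30029780 followed (log2 fold change 2.38 ± 0.17 SE, adjusted p = 2.48e-12), and SMED30018138 and SMED30026646 had the smallest rises that passed, of 0.40 and 0.49 on the log2 scale. Of the 13 members that did not pass with opa1 RNAi, 2 had a fold change below 0, SMED30004898 at -0.40 and SMED30021938 at -0.26. Those 2, SMED30032103, SMED30010932 and SMED30014784 also did not pass with combined RNAi. The first 4 are those of the 10 members above in which control 6hpa replicate 2 was the highest control library at 6hpa. SMED30014784 had 311, 219 and 212 at 6hpa and 87.96, 112 and 151 at 0dpa in combined RNAi tails. SMED30028679 did not pass with opa1 RNAi (log2 fold change 0.27 ± 0.15 SE, adjusted p = 0.175) but rose with combined RNAi (log2 fold change 1.24 ± 0.15 SE, adjusted p = 1.89e-08), with 2018, 1886 and 1845 at 6hpa and 798, 891 and 754 at 0dpa.

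The later fall was tested in the same libraries, where it passed in part of the members. At 1dpa against 0dpa, 20 of 200 members fell and 2 rose in combined RNAi tails, where 4.18% of all features fell and 5.24% rose, and the median of the members was -0.25. With opa1 RNAi 172 fell and 0 rose at 1dpa, where 13.8% of all features fell and 14.3% rose, and the median was -0.90. At 2dpa 40 fell and 0 rose in combined RNAi tails, where 6.9% of all features fell and 10.2% rose, with a median of -0.29. In opa1 RNAi tails 101 fell and 0 rose at 2dpa, where 4.55% of all features fell and 5.62% rose, with a median of -0.59. The medians of all features lay between 0.05 and 0.09 in these 4 comparisons. The count of 101 drops to 50 without opa1 2dpa replicate 3 and to 44 without opa1 0dpa replicate 2, whose members lay 0.44 above their mean over tail libraries (median), against -0.06 and 0.15 in the other opa1 0dpa libraries. With combined RNAi the 40 calls at 2dpa drop to 24 without combined 2dpa replicate 3, and the 22 at 1dpa to 10 without combined 0dpa replicate 1 and 11 without combined 1dpa replicate 2. On TPM values the counts at 2dpa were 8 lower and 8 higher of 164 with combined RNAi, with a median of 0.05 where all features had 0.36, and 40 lower with opa1 RNAi, with a median of -0.32 where all features had 0.24.

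Of the 1366 features with the rise and d2 above -0.5 in controls, 0.659% were lower at 2dpa in combined RNAi tails and 29.1% higher. In opa1 RNAi tails 3.51% were lower and 9.15% higher at 2dpa. At 1dpa 61.4% of these features were lower and 3.51% higher in opa1 RNAi tails, with a median of -0.67. The fall at 1dpa with opa1 RNAi was thus not particular to the members. These features had a 1dpa median of -0.39 in control tails too, given as a value only. In combined RNAi tails 2.42% of these features were lower and 3.59% higher at 1dpa, with a median of -0.05. Lower at 2dpa in both RNAi groups were 34 of 200 members, against 2.58% of all features tested, and 93 were lower in neither, against 91.1%. SMED30002072 passed in both RNAi groups, with values of 431, 411 and 512 at 2dpa in combined RNAi tails, against 2095, 1662 and 1287 at 0dpa (log2 fold change -1.87 ± 0.33 SE, adjusted p = 8.86e-05). With opa1 RNAi the same feature gave log2 fold change -1.46 ± 0.33 SE, adjusted p = 0.00293. SMED30014784 had the lowest fold change that passed with combined RNAi (log2 fold change -2.82 ± 0.94 SE, adjusted p = 0.0335), with 23.6, 10.9 and 13.9 at 2dpa and 87.96, 112 and 151 at 0dpa. With opa1 RNAi the lowest were SMED30004898 (-3.75) and SMED30021938 (-3.40), and the smallest falls that passed were SMED30012432 (-0.44) and SMED30026527 (-0.45). With combined RNAi the smallest were SMED30018138 (-0.41) and SMED30019292 (-0.43).

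**Figure D3:**
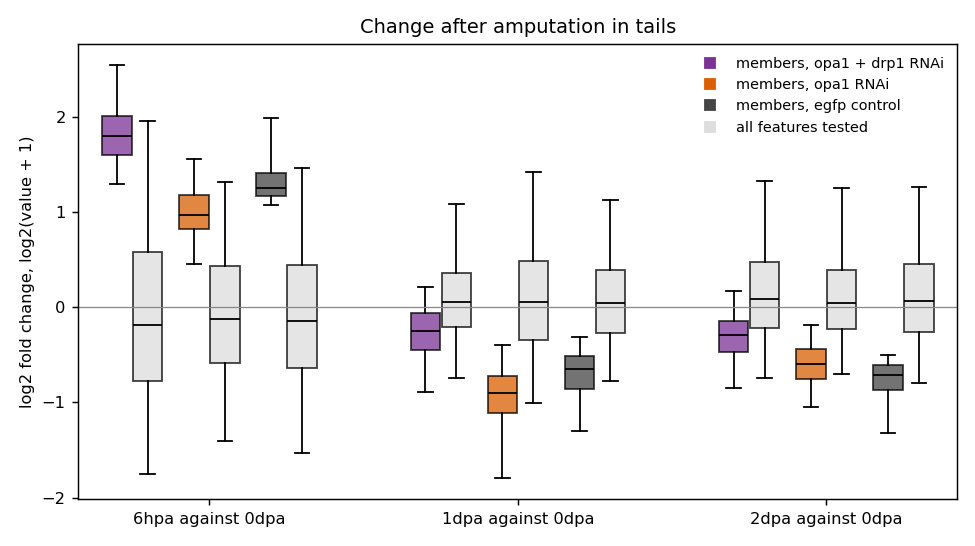
Log2 fold change after amputation in tails on log2(value + 1), for 6hpa, 1dpa and 2dpa against 0dpa. Boxes span the interquartile range with the median line and whiskers the 5th to 95th percentiles; coloured boxes are the 200 members (combined, opa1, control from left to right) and each grey box to the right of one is all 20681 features in the same groups. Member medians at 6hpa were 1.80, 0.97 and 1.26, and at 2dpa -0.29, -0.59 and -0.72; the control boxes show the values that chose the members.

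Adding drp1 to opa1 RNAi went with a lower level of some members at 0dpa and a higher level of others at 6hpa. At 0dpa combined RNAi tails had 12 members lower and 1 higher than opa1 RNAi tails, where 0.546% of all features were lower and 0.218% higher, with a median of -0.50 over the members and 0.03 over all. At 6hpa 24 were higher and 0 lower, where 2.4% of all features were higher and 2.36% lower, with a median of 0.33 against 0.06. The 1366 features with the rise and d2 above -0.5 in controls shifted alike, with medians of -0.41 at 0dpa and 0.37 at 6hpa. Of these features 2.71% were called lower at 0dpa and 4.61% higher at 6hpa. The rise itself was larger with combined RNAi: the 6hpa change in combined RNAi tails minus that in opa1 RNAi tails was called higher in 95 members and lower in 0, where 4.57% of all features were higher and 2.88% lower, with a median of 0.84 against 0.02 (limma interaction term). The features with the rise alone had 32.7% called higher and a median of 0.80 in that test. The count of 95 is 18 without opa1 0dpa replicate 2 or without opa1 6hpa replicate 1, 36 without combined 6hpa replicate 2, 62 without combined 0dpa replicate 2 and 58 without combined 0dpa replicate 3. It is 8 of 164 on TPM values, where the median was 0.43 and that of all features -0.23. The 13 calls at 0dpa become 43, 0 and 7 without opa1 0dpa replicate 1, 2 or 3, and 1 and 0 without combined 0dpa replicate 2 or 3. The 24 calls at 6hpa become 4, 49 and 14 without opa1 6hpa replicate 1, 2 or 3, and 5 and 15 without combined 6hpa replicate 2 or 3, and on TPM values the median over members was -0.12 where that of all features was -0.26.

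At 1dpa 3 members were higher and 0 lower in combined than in opa1 RNAi tails, where 0.0822% of all features were higher and 0.218% lower; 1 of the 3 is called without opa1 1dpa replicate 1 or 3, or combined 1dpa replicate 1 or 2. At 2dpa 0 of 200 passed with limma and 26 had an unadjusted p under 0.05, where 0.266% of all features were higher and 0.469% lower. Between 0dpa and 1dpa the change with combined RNAi exceeded that with opa1 RNAi by a median of 0.68 over the members. Over the features with the rise alone that median was 0.60. The change was called higher with combined RNAi in 9 members and lower in 0, where 0.266% of all features were higher and 0.15% lower. That count runs from 0, without opa1 0dpa replicate 2, combined 0dpa replicate 2, opa1 1dpa replicate 1 or 3 or combined 1dpa replicate 1, over 1, 2, 4 and 5 without combined 0dpa replicate 3, combined 1dpa replicate 2, opa1 0dpa replicate 3 and combined 1dpa replicate 3, to 38 without opa1 0dpa replicate 1 and 56 without opa1 1dpa replicate 2. The change to 2dpa gave 0 calls among members and 0 among all features with limma, with 17 members at an unadjusted p under 0.05 and a median of 0.29. The counts of 40 and 101 at 2dpa are thus not shown to differ between the RNAi groups. These tests of the change at 1dpa and 2dpa were added after seeing the data.

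Among the members called at 6hpa, SMED30028679 and SMED30008790 had the highest log2 fold changes of combined against opa1 RNAi. In combined RNAi tails SMED30028679 had 798, 891 and 754 at 0dpa, then 2018, 1886 and 1845 at 6hpa, followed by 532, 613 and 645 at 1dpa and 606, 658 and 458 at 2dpa. In opa1 RNAi tails it had 497, 526 and 468 at 0dpa, then 549, 701 and 554 at 6hpa, followed by 389, 322 and 283 at 1dpa and 377, 479 and 381 at 2dpa. In control tails it had 1361, 1383 and 1036 at 0dpa, then 3205, 2384 and 2691 at 6hpa, followed by 956, 976 and 786 at 1dpa and 725, 646 and 1037 at 2dpa. Combined RNAi tails lay above opa1 RNAi tails without overlap at 0dpa (log2 fold change 0.71 ± 0.15 SE, adjusted p = 0.0202), 6hpa (log2 fold change 1.68 ± 0.15 SE, adjusted p = 8.17e-09) and 1dpa (log2 fold change 0.85 ± 0.15 SE, adjusted p = 0.00299), and at 2dpa the difference did not pass (log2 fold change 0.47 ± 0.15 SE, adjusted p = 0.216). SMED30008790 had 561, 659 and 442 at 6hpa in combined RNAi tails and 161, 189 and 219 in opa1 RNAi tails (log2 fold change 1.53 ± 0.25 SE, adjusted p = 6.80e-04), with control tails at 589, 735 and 557. SMED30032887 was higher with combined than with opa1 RNAi at 6hpa (log2 fold change 1.19 ± 0.23 SE, adjusted p = 0.00294) and at 1dpa (log2 fold change 1.02 ± 0.23 SE, adjusted p = 0.0284).

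SMED30010453 was the third member higher at 1dpa, with 252, 196 and 146 in combined RNAi tails and 110.0, 125 and 120.3 in opa1 RNAi tails (log2 fold change 0.70 ± 0.16 SE, adjusted p = 0.042). It was also among the smallest differences that passed at 6hpa (0.58), together with SMED30026323 (0.49). At 0dpa SMED30019249 and SMED30023766 were lowest in combined RNAi tails. SMED30023766 had 623, 726 and 697 with combined and 1457, 1287 and 1114 with opa1 RNAi (log2 fold change -0.91 ± 0.20 SE, adjusted p = 0.0207), and SMED30019249 had 61.3, 81.8 and 36.3 and 74.9, 146 and 161 (log2 fold change -1.08 ± 0.27 SE, adjusted p = 0.0497). SMED30017226 had the smallest difference that passed there (-0.50).

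Against control tails at 1dpa few members passed. In combined RNAi tails 1 member was higher and 0 lower, where 0.0822% of all features were higher and 0.155% lower, with a median of 0.12. That was SMED30005285, with 189, 214 and 197 in combined RNAi tails and 116, 129.7 and 116 in control tails (log2 fold change 0.73 ± 0.15 SE, adjusted p = 0.0179). In opa1 RNAi tails 4 members were lower and 0 higher, where 0.256% of all features were lower and 0.256% higher, with a median of -0.06. Without control 1dpa replicate 1 or 2, or opa1 1dpa replicate 1 or 3, 2 of the 4 pass. The single call with combined RNAi is lost without any 1 control 1dpa library, or without combined 1dpa replicate 1 or 2. The 4 were SMED30028679 (log2 fold change -1.45 ± 0.15 SE, adjusted p = 9.05e-08), SMED30032887 (log2 fold change -1.25 ± 0.23 SE, adjusted p = 0.00232), SMED30008790 (log2 fold change -1.16 ± 0.25 SE, adjusted p = 0.0181) and SMED30010453 (log2 fold change -0.72 ± 0.16 SE, adjusted p = 0.0263). At the times that chose the members the differences from control tails are values only: the medians for combined RNAi were -0.30 at 0dpa, 0.22 at 6hpa and 0.13 at 2dpa, and for opa1 RNAi 0.19, -0.10 and 0.33. The control values of the chosen features are extreme by the choice itself, so these medians support nothing. The RNAi tails share the control libraries in these comparisons.

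Whole bodies shared no library with the tails. Among the whole-body values 199 members had values, SMED30032887 had no row, and 198 passed the filter on low counts; SMED30033942 did not, with 0 to 0.159 CPM (counts scaled by library size) per library. At 1dpa against homo more members fell than rose with every RNAi (edgeR quasi-likelihood, adjusted p under 0.05 over 22889 features). With drp1 RNAi 69 of 198 fell and 17 rose, where 16.2% of all features fell and 16.1% rose. With opa1 RNAi 91 fell and 23 rose, where 26% fell and 27.2% rose. With sod2 RNAi 46 fell and 17 rose, where 9.45% fell and 8.78% rose. With egfp RNAi 45 fell and 15 rose, where 8.89% fell and 9.83% rose. The medians of the members were -0.13, -0.27, -0.12 and -0.14 in that order, against 0.03, 0.09, 0.02 and 0.01 over all features. The features with the rise alone went the other way in this count: 5.65% of them fell and 45.2% rose with drp1 RNAi, and 5.06% fell and 24.9% rose with egfp RNAi.

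In all 4 RNAi groups 23 of 198 members fell at 1dpa and 1 rose, where 3.65% of all features fell and 3.01% rose in all 4. There were 50 members that passed in none of the 4 groups, where 36.4% of all features passed in none. SMED30002026, which had one of the clearest waves in tails, was the member with the lowest fold change with sod2 RNAi, and its fall passed in all 4 groups. It had 4.88, 8.75 and 8.63 CPM at 1dpa and 17.9, 22.2 and 18.8 CPM at homo with drp1 RNAi (log2 fold change -1.63 ± 0.18 SE, adjusted p = 2.37e-08). With opa1 RNAi it had 7.33, 5.38 and 6.83 CPM at 1dpa and 24.04, 26.1 and 21.3 CPM at homo (log2 fold change -2.23 ± 0.17 SE, adjusted p = 9.18e-12). With sod2 RNAi it had 6.51, 4.64 and 6.59 CPM and 21.97, 24.4 and 17.1 CPM (log2 fold change -1.87 ± 0.18 SE, adjusted p = 6.73e-09), and with egfp RNAi 6.57, 8.2 and 6.86 CPM and 11.7, 12.97 and 9.63 CPM (log2 fold change -0.73 ± 0.18 SE, adjusted p = 0.00417). The times did not overlap in any group. SMED30019187 and SMED30011669, next to SMED30032887 the members with the highest mean in tails, also fell in all 4, with log2 fold changes of -0.78 and -0.52 with egfp RNAi. The member that rose in all 4 was SMED30024475, with 33.9, 32.6 and 31.6 CPM at 1dpa and 19.3, 23.3 and 24.8 CPM at homo with egfp RNAi (log2 fold change 0.48 ± 0.10 SE, adjusted p = 7.72e-04).

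Members with a strong wave in tails did not all fall in whole bodies. SMED30029780 rose at 1dpa with egfp RNAi, with 12.5, 21.3 and 21.3 CPM at 1dpa and 4.37, 4.68 and 3.9 CPM at homo (log2 fold change 2.02 ± 0.23 SE, adjusted p = 2.10e-07). It rose also with sod2 RNAi, with 10.5, 12.5 and 9.31 CPM and 4.98, 4.62 and 5.07 CPM (log2 fold change 1.10 ± 0.24 SE, adjusted p = 0.00111). SMED30016594 rose most with drp1 RNAi, with 12.4, 19.01 and 15.1 CPM at 1dpa and 6.05, 5.65 and 5.62 CPM at homo (log2 fold change 1.19 ± 0.19 SE, adjusted p = 8.27e-06). Among low features SMED30031030 rose most with opa1 RNAi (log2 fold change 1.47 ± 0.53 SE, adjusted p = 0.0201), at 1.67, 1.00 and 1.13 CPM and 0.534, 0.148 and 0.378 CPM. SMED30004898 and SMED30032103, variable in tails, had the lowest fold changes with opa1 RNAi. SMED30032103 had 3.07, 3.8 and 7.25 CPM at 1dpa and 24.2, 23.01 and 15.3 CPM at homo (log2 fold change -2.50 ± 0.26 SE, adjusted p = 1.59e-09), and SMED30004898 had 0.628, 0.43 and 0.634 CPM and 6.94, 6.16 and 1.97 CPM (log2 fold change -3.49 ± 0.41 SE, adjusted p = 2.46e-08). With egfp RNAi SMED30004898 had 1.91, 1.82 and 1.88 CPM and 2.07, 1.72 and 2.08 CPM (log2 fold change -0.13 ± 0.39 SE, adjusted p = 0.867).

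**Figure D4:**
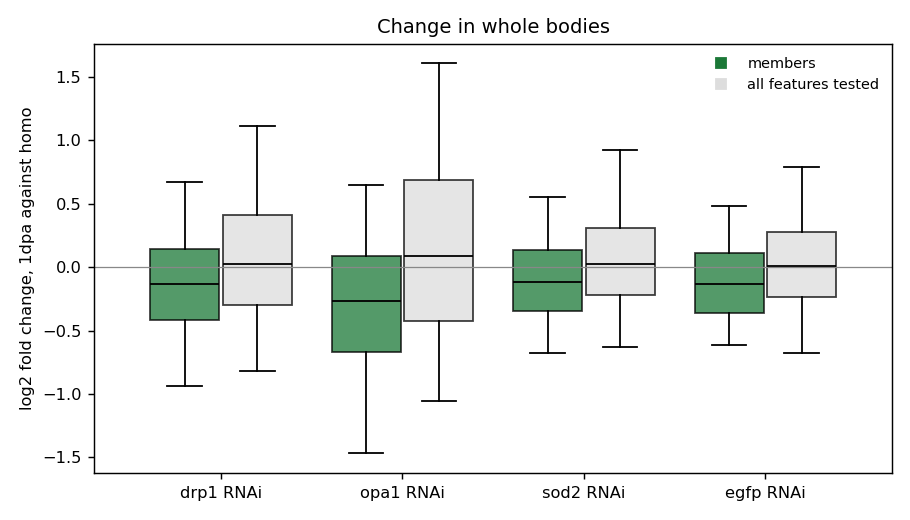
Log2 fold change of 1dpa against homo in whole bodies with drp1, opa1, sod2 and egfp RNAi. Green boxes are the 198 members tested and grey boxes the 22889 features tested; boxes span the interquartile range with the median line and whiskers the 5th to 95th percentiles. Every member median lies below 0, at -0.13, -0.27, -0.12 and -0.14, and the widest spread is with opa1 RNAi.

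Against egfp RNAi, the members were more often higher than lower at homo with drp1 and opa1 RNAi. With drp1 RNAi 54 were higher and 18 lower, where 13.7% and 10.5% of all features were, and the median was 0.13. With opa1 RNAi 71 were higher and 18 lower, where 19.2% and 15.6% were, and the median was 0.20. With sod2 RNAi 9 were higher and 12 lower, where 2.15% and 1.61% were, and the median was 0.02. The 3 comparisons share the egfp libraries. Of the features with the rise alone, 5.28% were higher and 24.05% lower with drp1 RNAi, and 9.38% and 33.8% with opa1 RNAi. Between opa1 and drp1 RNAi at homo 3 members were higher and 3 lower, where 2.41% and 1.58% were, and 10 pass without opa1 homo replicate 2. Without egfp homo replicate 3, 36 are higher and 11 lower with drp1 RNAi. The 21 calls with sod2 RNAi become 8 without any 1 of its own libraries, and 12 without egfp homo replicate 1 or 3.

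At 1dpa, 27 members were higher and 6 lower with drp1 RNAi than with egfp RNAi, where 3.83% and 3.36% of all features were. With opa1 RNAi 19 were higher and 29 lower, where 4.57% and 6.64% were. With sod2 RNAi 1 was higher and 2 lower, where 0.214% and 0.179% were. The 33 calls with drp1 RNAi become 21 and 20 without egfp 1dpa replicate 1 or 2 and 17 without drp1 1dpa replicate 3. The 48 with opa1 RNAi become 29 without egfp 1dpa replicate 3 or opa1 1dpa replicate 1, and 27 without opa1 1dpa replicate 2. The 3 with sod2 RNAi become 0 without egfp 1dpa replicate 2, and 1 without egfp 1dpa replicate 3 or sod2 1dpa replicate 1 or 2. The change from homo to 1dpa with opa1 RNAi minus that with egfp RNAi was called higher in 18 members and lower in 56, where 12.8% and 15.7% of all features were, with a median of -0.19. For drp1 RNAi it was higher in 6 and lower in 15, where 1.03% and 2.89% were, and the 21 calls become 11 without egfp homo replicate 3 or drp1 homo replicate 1 and 12 without egfp 1dpa replicate 3. For sod2 RNAi it was higher in 1 and lower in 0, where 0.083% of all features were higher and 0.0612% lower. These 3 tests of the difference were added after seeing the data.

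SMED30028679, lower in opa1 RNAi tails, was lower with opa1 RNAi in whole bodies at 1dpa too. It had 1984, 1585 and 1299 CPM with drp1 RNAi, 652, 696 and 789 CPM with opa1 RNAi, 2132, 1932 and 2009 CPM with sod2 RNAi and 3360.4, 2942 and 3089 CPM with egfp RNAi. Every library of the drp1, opa1 and sod2 RNAi groups lay below those of egfp RNAi, and the log2 fold changes were -0.95 with drp1, -2.23 with opa1 and -0.61 with sod2 RNAi (adjusted p = 2.27e-05, 3.73e-12 and 0.0388). At homo it had 1860.2, 1391 and 1360.4 CPM with opa1 RNAi and 2397, 2819 and 2602 CPM with drp1 RNAi (log2 fold change -0.72 ± 0.14 SE, adjusted p = 0.00187). SMED30006763 showed the reverse at 1dpa, with 88.3, 85.3 and 137 CPM with drp1 RNAi, 98.8, 109 and 85.8 CPM with opa1 RNAi and 52.8, 47.1 and 52.8 CPM with egfp RNAi (log2 fold change 1.02 ± 0.14 SE, adjusted p = 5.78e-06 for drp1; log2 fold change 0.84 ± 0.14 SE, adjusted p = 6.54e-05 for opa1). At homo SMED30033119 had 29.3, 35.3 and 41.3 CPM with opa1 RNAi and 71.5, 86.95 and 114 CPM with egfp RNAi (log2 fold change -1.16 ± 0.12 SE, adjusted p = 1.41e-08). With sod2 RNAi at homo SMED30002026 was highest (log2 fold change 0.87 ± 0.17 SE, adjusted p = 0.00269) and SMED30002079 lowest (log2 fold change -1.23 ± 0.23 SE, adjusted p = 0.00221).

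Most members had a short length and a higher share of the RNA in tails than in whole bodies. The length is a feature's effective length in the whole-body table, obtained as counts over TPM and set relative to the median feature of a library; its median was 0.585 over 199 members, 1.35 over the 1366 features with the rise alone and 1.00 over 12867 features at 50 or more in control tails. Below 1 were 147 members, or 73.9%, against 36.4% of the features with the rise alone. Whether length has a part in the measured changes was not tested. The log2 share of a feature in control tails at 0dpa minus that in egfp RNAi whole bodies at homo had a median of 0.81 over the members, 0.25 over the features with the rise alone and -0.10 over all; it was above 0 in 183 of 199 members. The tail and whole-body values are separate and differ in kind, so this is a level set across tables, with no test. The control 0dpa libraries in this share also took part in choosing the members, so the share is not independent of the choice.

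**Figure D5:**
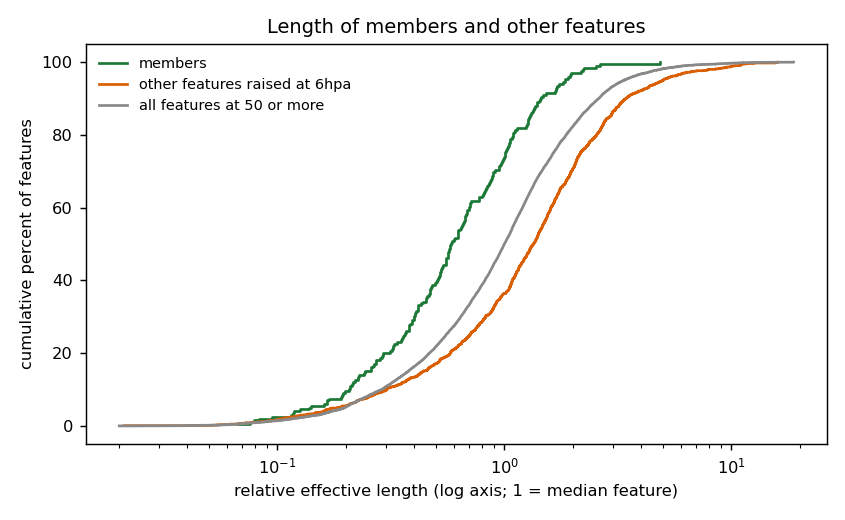
Cumulative percent of features (vertical) against effective length relative to the median feature (horizontal, log axis). The green line is 199 members, the orange line 1366 features with the rise at 6hpa and no later fall in control tails, and the grey line all 12867 features at 50 or more; the members' line lies furthest left, with a median of 0.585 against 1.35 for the orange and 1.00 for the grey line.

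Across the 36 tail libraries the members moved closely together, the control libraries among them having chosen the members. The median Pearson r over the 19900 pairs of members was 0.925 on log2(value + 1), and SMED30032887 correlated with the others at a median of 0.785. The members least like the median of the others were SMED30004898 (r = 0.573), SMED30014784 (0.579), SMED30010932 (0.620) and SMED30028679 (0.630). Over the 24 whole-body libraries the median r over 19701 pairs was 0.049, with the 5th and 95th percentiles at -0.588 and 0.644. These values describe libraries that share groups and scaling and carry no p.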

How the data were processed

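RNA was extracted with TRIGene reagent, and 400 ng of it went into NEBNext libraries, per the labels' protocols. Quantification was by kallisto, by the names of the deposited tables; its version, the transcript index and the genome build are not given in the sources used here. Estimated counts make up the whole-body table as deposited (89.8% to 91.5% of the values above 0 are whole). Tail values are a signal that the authors had scaled between libraries by a method not stated; no value above 0 is whole, so reads could not be recovered and the depth is unknown. The deposited TPM values of tails cover 27444 of 36035 features and served as an alternative. Their sums ran from 473866 to 744452 per library, where those of whole bodies sum to 1000000. The part missing from the tail TPM values thus varies between libraries. The TPM values of whole bodies gave the lengths.

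A count test had been planned for tails where the table held counts. As it holds no whole values above 0, limma 3.58.1 (R 4.3.3, trend) was run on log2(value + 1). It covered features of at least 10 in 3 or more libraries, with all 36 libraries in 1 fit. Log2 fold changes are on the log2(value + 1) scale, which understates changes of low features. Whole-body counts were rounded and tested with edgeR 4.0.16 (TMM, filterByExpr, quasi-likelihood) in 1 fit of 24 libraries, and the CPM printed are unrounded counts over the plain library total, without TMM factors. For edgeR the SE is the fold change divided by the root of the F statistic. P-values were adjusted by Benjamini-Hochberg over all features of a comparison, and not over the 29 comparisons, 5 of which were added after seeing the data. Limma and edgeR were checked on simulated data.

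The members and lists were chosen with earlier results of these data known. The members named are the 10 with the highest d6 minus d2, the 3 with the highest tail mean, those nearest each limit, and the 2 highest and 2 lowest called log2 fold changes of a comparison; others were chosen after their values were seen. Gene lists and marker lists fixed by gene name could not be used, since the tables pair no feature with a name. Each table's columns were matched to samples by title, and 0 columns of per-sample values were left unused. Alternatives were DESeq2 1.42.0 for whole bodies, other filters, pseudocounts and scalings, fits of only the libraries compared, a replicate block and leaving out each library.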

Additional observations from a re-analysis of the deposited data

Results flagged for a closer look

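Results are given here where the change after amputation differed between 2 RNAi groups by a test of the difference itself. Groups of 3 libraries were not tested for outlying samples. The members named here were chosen after their values were seen, as the 2 highest and 2 lowest differences among those called. No cause was tested.

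In tails the 6hpa change differed between combined and opa1 RNAi in 95 of 200 members, all of them higher with combined RNAi, where 4.57% of all features were higher and 2.88% lower (limma interaction term). That count is 18 without opa1 0dpa replicate 2 or opa1 6hpa replicate 1, 36 without combined 6hpa replicate 2, and 62 and 58 without combined 0dpa replicate 2 or 3. It is also far lower on TPM values, as given above. Of the features with the rise alone 32.7% were called higher, with a median of 0.80 against 0.84 over the members. Among the members called, the differences were highest for SMED30025527 (1.59 on the log2 scale) and SMED30028832 (1.58), and lowest for SMED30004267 (0.51) and SMED30017226 (0.67). The 1dpa change differed in 9 members, all higher with combined RNAi, where 0.266% of all features were higher and 0.15% lower. With 1 library left out that count runs from 0 (without opa1 0dpa replicate 2, for one) to 56 (without opa1 1dpa replicate 2). The differences called were highest for SMED30033119 (1.34) and SMED30035805 (1.25), and lowest for SMED30005973 (0.81) and SMED30010749 (0.88).

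In whole bodies the change from homo to 1dpa differed from that with egfp RNAi in 74 of 198 members with opa1 RNAi, 21 with drp1 RNAi and 1 with sod2 RNAi (edgeR quasi-likelihood). Of all features 12.8% were higher and 15.7% lower with opa1 RNAi, against 18 and 56 members. With drp1 RNAi 1.03% were higher and 2.89% lower, against 6 and 15 members, and with sod2 RNAi 0.083% and 0.0612%. With opa1 RNAi the highest log2 differences were those of SMED30031030 (2.16) and SMED30008610 (1.41), and the lowest those of SMED30004898 (-3.36) and SMED30021938 (-2.09). With drp1 RNAi they were highest for SMED30006763 (1.36) and SMED30016594 (0.93), and lowest for SMED30028679 (-1.40) and SMED30034824 (-1.26). The single member with sod2 RNAi was SMED30028423 (0.64). The 21 calls with drp1 RNAi become 11 without egfp homo replicate 3 or drp1 homo replicate 1 and 12 without egfp 1dpa replicate 3. The sod2 count runs from 0 without sod2 homo replicate 3 or sod2 1dpa replicate 1 to 4 without egfp homo replicate 2, and is 3 without egfp homo replicate 3 and 2 without egfp 1dpa replicate 3.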

How the results depend on the processing

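The rise at 6hpa kept its count within 1.5 times in both RNAi groups under each alternative run, and so did the 4 whole-body comparisons of 1dpa with homo. Of 179 recomputed counts of members other than those with 1 library left out, 145 were within 1.5 times the reported one, and 34 were not. The cause was not tested. Without the filter on low values, combined against opa1 RNAi tails gave 4 members at 0dpa, 14 at 6hpa and 1 at 1dpa, and the 1dpa change differed in 0. TMM rescaling gave 34 at 1dpa with combined RNAi.

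On TPM values, with 164 members, opa1 RNAi tails gave 112 members at 1dpa and 40 at 2dpa, and combined RNAi tails 14 and 16. Combined against opa1 RNAi gave 53 at 0dpa and 0 at 1dpa, the 6hpa change differed in 8 and the 1dpa change in 3, and against control tails at 1dpa combined RNAi gave 2 and opa1 RNAi 1. Signs turned on TPM values for SMED30010932 with combined RNAi at 6hpa (-0.21), SMED30021938 with combined RNAi at 2dpa (0.0041), the median with combined RNAi at 2dpa (0.054) and that of combined against opa1 RNAi at 6hpa (-0.12).

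With only the libraries compared in a fit, combined RNAi tails gave 43 members at 1dpa and 72 at 2dpa, combined against opa1 RNAi 28 at 0dpa, then 9 at 6hpa, 1 at 1dpa and another 9 at 2dpa, combined RNAi against control tails 7 at 1dpa, and the 1dpa change 1. In whole bodies that setting gave 7 for sod2 against egfp RNAi at 1dpa and 10 for opa1 against drp1 RNAi at homo. With equal sums after taking out SMED30032887, an alternative chosen after seeing the data, combined against opa1 RNAi gave 37 at 0dpa and 14 at 6hpa, and the 1dpa change 35. Without the filter on low counts sod2 against egfp RNAi gave 8 at 1dpa and the sod2 change 6, and DESeq2 gave 5 for that change and 14 for opa1 against drp1 RNAi at homo. The rule keeps 111 of the 200 members with a pseudocount of 50 and 9 of 164 on TPM values.

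Leaving out 1 library at a time gave 44 to 117 members for opa1 RNAi tails at 2dpa, 10 to 20 for combined RNAi tails at 1dpa and 24 to 38 at 2dpa. Combined against opa1 RNAi gave 0 to 43 at 0dpa, then 4 to 49 at 6hpa and 1 to 4 at 1dpa. The 6hpa change ran from 18 to 121 and the 1dpa change from 0 to 56; against control tails at 1dpa the count ran from 0 to 1 with combined and from 2 to 6 with opa1 RNAi. In whole bodies, against egfp RNAi at homo, drp1 ran from 47 to 71 and sod2 from 8 to 15, and at 1dpa drp1 from 17 to 39, opa1 from 27 to 37 and sod2 from 0 to 2. The drp1 change ran from 11 to 24, the sod2 change from 0 to 4 and opa1 against drp1 RNAi at homo from 4 to 10. The rule keeps 110 to 185 members.

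Signs turned when 1 library was left out for single members. With opa1 RNAi at 6hpa SMED30004898 ran from -1.05 to 0.18, SMED30032103 from -0.0058 to 0.59, SMED30010932 from -0.17 to 1.12 and SMED30021938 from -0.67 to 0.071, and with combined RNAi SMED30010932 ran from -0.012 to 0.67. With combined RNAi at 2dpa SMED30004898 ran from -1.14 to 1.72, SMED30021938 from -1.69 to 0.49, SMED30032103 from -0.62 to 0.87 and SMED30033942 from -0.74 to 0.0032.

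Over all features tested, the deviations of same-numbered libraries of different groups had a median correlation of 0.0021 in tails and 0.0033 in whole bodies. The members can differ from this: opa1 replicate 2 had their highest median level at each time (0.44, 1.45, -0.61 and -0.33 from 0dpa to 2dpa). In combined RNAi and control tails no replicate number was highest at every time. Whether same-numbered libraries share a batch or pool is not given by the labels and was not tested. With the replicate number as a block, 195 members rose at 6hpa with combined RNAi and 187 with opa1 RNAi, and the 6hpa change differed in 99. The block gives each replicate number the same effect in all tail groups. A pattern found in opa1 RNAi tails alone is therefore not fitted by it. The block moved the reported counts of 3 to 2 for combined against opa1 RNAi tails at 1dpa and for sod2 against egfp RNAi at 1dpa, and no count by more than 1.5 times. With 3 libraries per group, small differences could not be detected, and the depth of the tail libraries is unknown.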
